A study of Mus musculus with 8 samples.

Results

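The Hes and Hey genes encode transcriptional repressors, several of which act downstream of Notch receptors. From this effector group 9 genes were followed here by symbol: Hes1, Hes2, Hes5, Hes6, Hes7, Hey1, Hey2, Heyl and Nrarp, out of 53697 genes in the deposited table. RNA was sequenced from mammary tumor cells of 4 mice in which the MMTV promoter drives the PyMT oncogene in the mammary epithelium. In 2 mice Dll1 expression was reported by GFP knocked into the Dll1 locus (PyMT-Dll1 GFP, a GFP-IRES-Cre-ERT2 allele), and in 2 mice by mCherry on a BAC transgene (PyMT-Dll1 mCh). Tumors were dissociated with collagenase and hyaluronidase, cells carrying CD45, CD31 or Ter119 were removed, and each mouse gave 1 library of reporter-positive (Dll1+) and 1 of reporter-negative (Dll1-) cells, so the 8 libraries form 4 pairs. All mice carried the PyMT transgene and a Dll1 reporter, no library came from cells without either, and the labels give no age. The reporter, the mice that carry it and any batch cannot be told apart, since each mouse has 1 reporter.

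When a ligand such as Dll1 on one cell binds a Notch receptor on a neighbor, the receptor is cleaved and its intracellular domain enters the nucleus, where it joins the DNA-binding protein Rbpj and switches on target genes. Members of the Hes and Hey families are among the best known of these targets, and both families encode basic helix-loop-helix repressors. Whether each member is a target of Notch in these cells was not tested. Hes proteins silence other genes through corepressors of the Groucho/Tle family. Nrarp is a small ankyrin-repeat protein induced by Notch that limits the signal. In the mammary gland Notch signaling takes part in the choice between basal and luminal cell fates.

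The corepressor contact of the Hes proteins is a tetrapeptide near the end of the protein, called WRPW. The related tetrapeptide of Hey proteins is called YRPW, and corepressor binding was not measured here. Its codons were searched in frame on the coding strand in the last 60 coding bases of each gene, with any codon that has G in its middle taken for the R and any that begins with TA for the Y. The WRPW pattern occurred in 0.037% of 21621 protein-coding genes of the GENCODE M21 annotation (GRCm38), and in Hes1, Hes2, Hes5, Hes6 and Hes7. The YRPW pattern occurred in 0.0185% of them and, among the members, in Hey1. Hey2, Heyl and Nrarp held neither pattern in that window. The 12 bases of the pattern are printed in capitals after the 9 coding bases before them, for the members with the highest levels. They lie in exon 4 of Hes1 at chr16:30067399-30067419 (plus strand), in exon 4 of Hes6 at chr1:91412061-91412081 (minus strand) and in exon 5 of Hey1 at chr3:8664520-8664540 (minus strand).
Hes1: gactccatgTGGAGACCGTGG
Hes6: cagagtgtgTGGAGGCCTTGG
Hey1: ggcaagcccTATAGACCTTGG

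RefSeq promoter sequences (GRCm38.p6, 250 bases before and 50 after the start) were at hand for 5 of the 9 members, Hes5, Hes6, Hes7, Hey2 and Nrarp, with 2 promoters for Hes6. The core letters bound by Rbpj, GTGGGAA on either strand, occurred in 6.38% of 32851 promoters. The promoters of Hes5 and Hey2 held 2 matches each and that of Hes7 held 1, and no match lay in these windows of Nrarp and Hes6. A match is a string of letters, and binding was not measured here. The 250 bases before the start of Hes5 (chr4:154960673-154960922, plus strand) are shown because this promoter holds a pair of matches while the gene gave almost no reads in any library. Capitals mark the matches, which begin 226 and 83 bases before the start, the first on the opposite strand.
Hes5: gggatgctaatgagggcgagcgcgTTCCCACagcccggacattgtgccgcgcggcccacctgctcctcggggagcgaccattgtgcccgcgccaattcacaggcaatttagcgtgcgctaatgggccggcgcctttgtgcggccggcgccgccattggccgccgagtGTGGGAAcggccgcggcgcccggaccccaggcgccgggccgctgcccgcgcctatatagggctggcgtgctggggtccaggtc

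Levels are given as CPM, the count of a gene scaled to the size of its library after TMM normalization. Differences were tested with edgeR's quasi-likelihood test, and a gene was called at an adjusted p under 0.05 over the 18322 genes left after removal of those with low counts. Libraries held between 27301396 and 123907626 counts, with a median of 38191068, and 3 counts, taken as the floor of detection, correspond to 0.0242 to 0.110 CPM before TMM scaling. Over the 4 mice, Dll1 itself was 7.46-fold higher in Dll1+ cells (adjusted p = 0.00651), with at most 50.2 CPM in the Dll1- and at least 87.4 CPM in the Dll1+ libraries, so no library went against its label. Luminal markers such as Krt8 (mean 2473 CPM) and Elf3 (74.0 CPM) summed to 5286 to 8774 CPM. Basal markers, between Krt14 (165 CPM) and Col17a1 (23.5 CPM), summed to 194 to 449 CPM in Dll1- and 232 to 1405 CPM in Dll1+ libraries. The mCh Dll1- libraries stood apart in markers of other cell types. Fibroblast markers, from Pdgfra (38.7 CPM) to Col3a1 (1748 CPM), summed to 7419 and 21326 CPM there and to at most 3228 CPM elsewhere. Endothelial markers, from Cldn5 (2.79 CPM) to Pecam1 (30.7 CPM), summed to 167 and 381 CPM against at most 95.7 CPM, and immune markers, from Cd3e (0.262 CPM) to Lyz2 (104 CPM), to 325 and 361 CPM against at most 164 CPM. No marker of the pericyte, endothelial, fibroblast or immune lists was at 0 counts in any library, although CD31 and CD45 had been used for depletion. Their part in the results was not tested.

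Of the 9 members, 7 had enough counts to be tested, and Hes2 and Hes5 did not. Compared per kilobase of annotated exon, as the mean over the 8 libraries, Hes1 (56.8 CPM per kb) and Hey1 (49.5 CPM per kb) were the highest, Hes6 followed at 16.2 CPM per kb, and Nrarp (2.05), Heyl (1.80), Hey2 (0.386) and Hes7 (0.289 CPM per kb) were lower. Hes5 (0.0329) and Hes2 (0.0128 CPM per kb) came last. Hes1 and Hey1 overlapped across libraries (38.6 to 79.1 and 20.1 to 88.9 CPM per kb), so their order does not hold beyond the spread. Hes1 had the higher mean per kb in both Dll1- groups and in mCh Dll1+ cells, and Hey1 in GFP Dll1+ cells (83.4 against 70.7 CPM per kb). Hey1 also overlapped with Hes6, whose highest library reached 20.8 CPM per kb, and so did the neighbors Nrarp and Heyl, Heyl and Hey2, Hey2 and Hes7, and Hes5 and Hes2. Relative to its level Heyl had the widest range of the tested members, from 0.201 to 6.51 CPM per kb, and ranked above Nrarp in mCh Dll1- cells but below it in the other 3 groups.

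**Figure D1:**
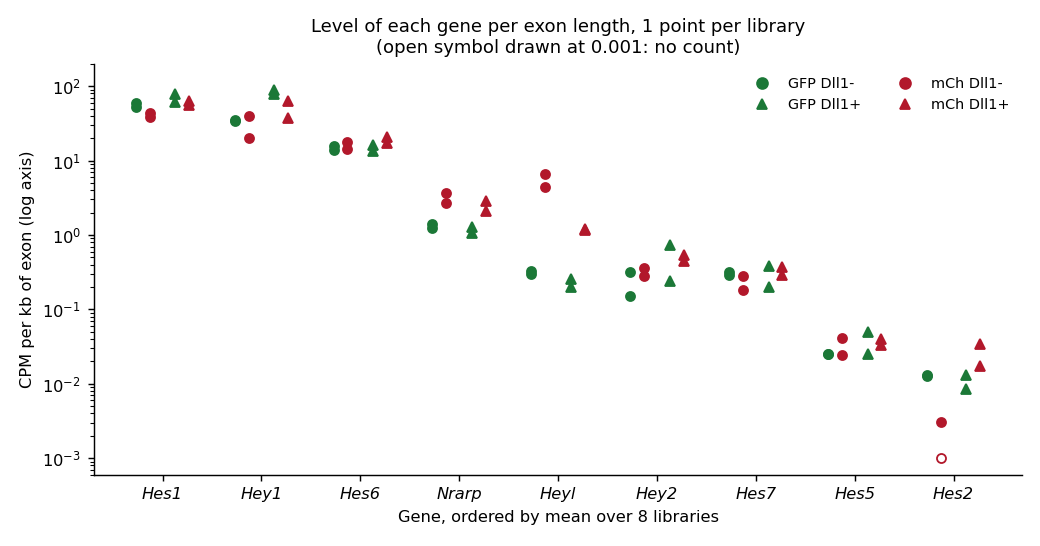
Level of each of the 9 genes in each library, in CPM per kb of annotated exon on a log axis, with circles for Dll1- and triangles for Dll1+ libraries, green for GFP and red for mCh mice. Hes1, Hey1 and Hes6 lie highest in all libraries, Heyl is split by reporter, and Hes5 and Hes2 lie at the bottom, with 1 Hes2 library at no count (open circle, drawn at 0.001).

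Hes1 and Hey1, the most abundant members, were both higher in Dll1+ cells, and they were the 2 of 7 tested members past the threshold over the 4 mice. By comparison, 14% of all 18322 tested genes passed it in either direction, 6.98% higher and 7.04% lower in Dll1+ cells. The median log2 difference of the 7 members was 0.18, against 0.00 over all genes. Hey2 lay higher in Dll1+ cells of each mouse without passing the test, Heyl and Nrarp lay lower in each mouse without passing it, and Hes6 and Hes7 had no common direction. Of the 6 basal markers, 5 moved in the same direction as Hes1 and Hey1 over the 4 mice, and 3 of 6 passed the threshold. Lgals7 went the other way without passing (log2 difference -0.27, edgeR adjusted p = 0.525). Basal markers that passed as higher in Dll1+ cells were 2 of 6 in the GFP mice (Krt5, log2 difference 2.30, and Col17a1, 2.45) and 4 of 6 in the mCh mice. Of all genes, 4.29% passed as higher in the GFP mice and 5.51% in the mCh mice. Over the 8 libraries the summed level of the basal markers correlated with Hes1 at r = 0.27 and with Hey1 at r = -0.02 (log2 CPM, points that share mice). These r mix differences between mice and reporters with those between the sorts. Within each mouse the basal sum was higher in the Dll1+ library. It was 411 against 253 and 232 against 194 CPM in the GFP mice, and 836 against 226 and 1405 against 449 CPM in the mCh mice. The part of the basal markers in these results was not tested.

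**Figure D2:**
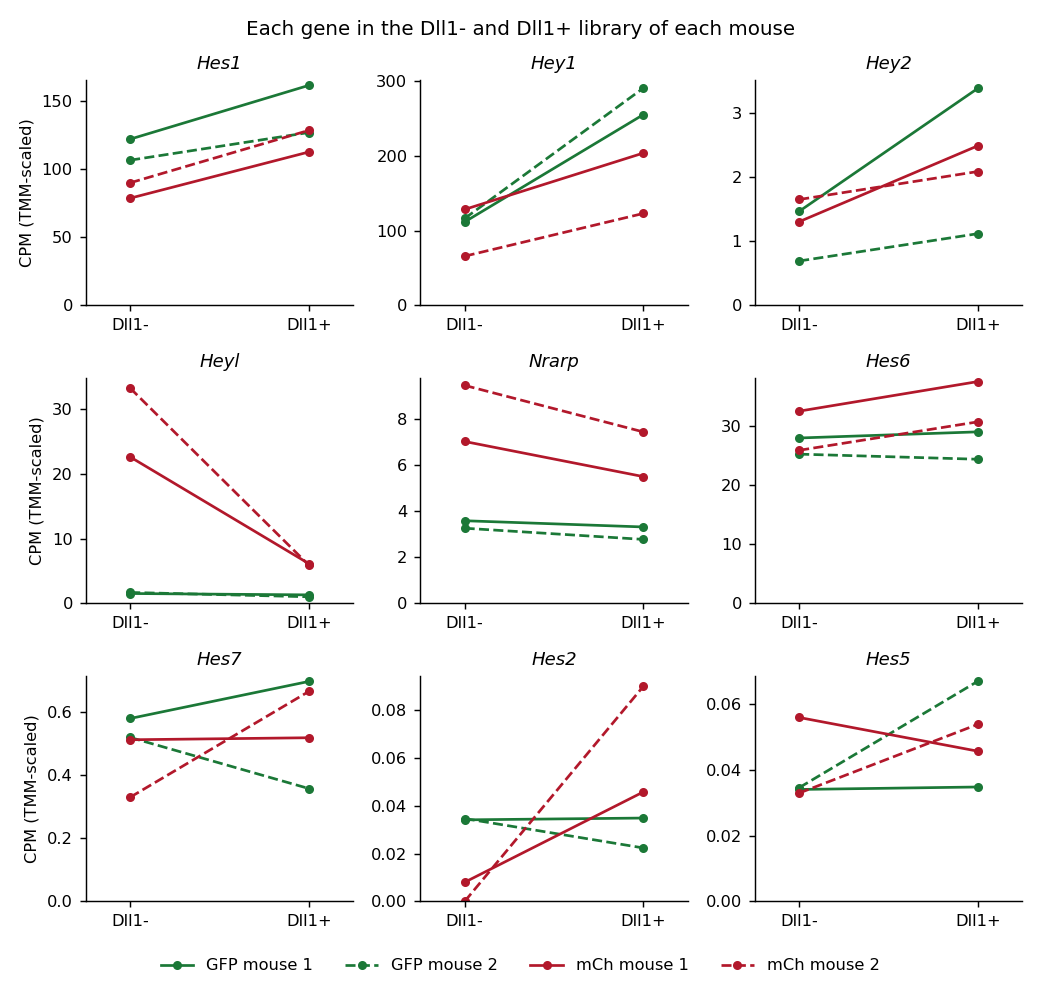
CPM of each gene in the Dll1- and Dll1+ library of each mouse, joined by a line, with solid lines for mouse 1 and dashed lines for mouse 2 of each reporter. All 4 lines rise for Hes1, Hey1 and Hey2 and fall for Heyl and Nrarp, while Hes2 and Hes5 rest on 0 to 7 counts per library.

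Hes1, a repressor that holds back differentiation and is the classic target of Notch, lies at chr16:30064384-30067796. It was measured at 122 and 106 CPM in the Dll1- and 161 and 127 CPM in the Dll1+ libraries of the GFP mice. The mCh mice had 78.6 and 89.8 CPM in Dll1- and 112 and 128 CPM in Dll1+ cells. The Dll1+ library was the higher of the pair in every mouse, and the groups did not overlap within either reporter, although they did across reporters. The log2 differences within mice were 0.40 and 0.25 in the GFP mice and 0.52 and 0.51 in the mCh mice. Over the 4 mice Hes1 was 1.34-fold higher in Dll1+ cells (log2 difference 0.42 ± 0.065 SE, adjusted p = 0.0151). Within the mCh mice it was 1.43-fold higher (0.51 ± 0.077 SE, adjusted p = 0.0159). Within the GFP mice the log2 difference of 0.33 ± 0.078 SE missed the threshold (adjusted p = 0.0524), and the test of the difference between the reporters gave -0.19 ± 0.11 SE (adjusted p = 0.538).

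Hey1, a repressor induced by Notch in vessels, heart and epithelia, lies at chr3:8663359-8667256. It was at 112 and 116 CPM in the Dll1- and at 255 and 290 CPM in the Dll1+ libraries of the GFP mice. The mCh mice gave 128 and 65.8 CPM in Dll1- and 203 and 123 CPM in Dll1+ cells. The GFP groups lay far apart, whereas the mCh groups overlapped, because the second mouse lay lower in both sorts. The log2 differences within mice were 1.19, 1.32, 0.67 and 0.90, in the order GFP mouse 1 and 2 and mCh mouse 1 and 2. Hey1 had the largest increase of the tested members, 2.03-fold over the 4 mice (log2 difference 1.02 ± 0.12 SE, adjusted p = 0.0085). The increase was 2.39-fold in the GFP mice (1.26 ± 0.093 SE, adjusted p = 0.0028) and 1.72-fold in the mCh mice (0.78 ± 0.092 SE, adjusted p = 0.0103). Hey1 was the 1 member past the threshold in the GFP mice, where 9.13% of all genes passed, 4.29% higher and 4.84% lower. The difference between the reporters, 0.47 ± 0.13 SE on the log2 scale, did not pass over all genes (adjusted p = 0.221, edgeR).

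Both calls over the 4 mice were lost without the pairing and with some single mice left out. In those fits fewer genes of the whole table passed as well. Without the mouse as a block, the edgeR adjusted p was 0.0623 for Hes1 and 0.059 for Hey1 over the 4 mice, 0.131 and 0.295 in the mCh mice, and 0.155 for Hey1 in the GFP mice. Leaving out GFP mouse 1 gave adjusted p of 0.065 for Hes1 and 0.0501 for Hey1, and leaving out mCh mouse 1 gave 0.0766 for Hes1, while the log2 value over the remaining mice stayed between 0.39 and 0.48 for Hes1 and between 0.92 and 1.14 for Hey1 whichever mouse was left out. The Hey1 call in the GFP mice was lost without GFP mouse 1 (adjusted p = 0.0596) and without GFP mouse 2 (adjusted p = 0.0781), and the Hes1 call in the mCh mice without mCh mouse 1 (0.0667) and without mCh mouse 2 (0.0749). With the mCh libraries fitted alone, neither gene passed (adjusted p = 0.0643 for Hes1 and 0.0604 for Hey1), and no other gene of the table did.

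Hey2, a close relative of Hey1 known from heart and arteries (chr10:30832359-30842801), was low throughout. It was at 1.47 and 0.693 CPM in Dll1- and 3.38 and 1.12 CPM in Dll1+ cells of the GFP mice, and at 1.30 and 1.65 CPM against 2.49 and 2.08 CPM in the mCh mice. Each Dll1+ library lay above its pair, but the groups overlapped in the GFP mice, where the first mouse lay higher in both sorts. The fitted log2 fold change over the 4 mice was 0.79 ± 0.21 SE, short of the threshold with edgeR (adjusted p = 0.0596) and past it with DESeq2 (adjusted p = 0.0292) or with edgeR over genes with at least 10 counts in every library. In each reporter alone it was 0.97 ± 0.31 SE (adjusted p = 0.108) and 0.65 ± 0.28 SE (adjusted p = 0.183), for the GFP and mCh mice in turn.

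Hes6, unlike the other Hes proteins, is known to counteract Hes1 and to favor differentiation (chr1:91411483-91414038). It was nearly flat, at 28.1 and 25.3 CPM in Dll1- and 29.1 and 24.4 CPM in Dll1+ cells of the GFP mice, and at 32.6 and 26.0 CPM against 37.6 and 30.8 CPM in the mCh mice. The groups overlapped in both reporters. The log2 difference was 0.11 ± 0.073 SE over the 4 mice (adjusted p = 0.319), 0.00 ± 0.090 SE in the GFP mice and 0.23 ± 0.088 SE in the mCh mice (adjusted p = 0.147).

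Hes7, the oscillating repressor of the somite clock (chr11:69120404-69124055), was at 0.330 to 0.697 CPM, from 10 to 64 counts per library. Its log2 differences within mice were 0.25, -0.49, 0.02 and 0.93, and the fitted value over the 4 mice was 0.18 ± 0.31 SE (adjusted p = 0.721). No difference was detected at this depth. Hes7 shares 2186 bases with 9130213A22Rik on the opposite strand, which held 65 counts over the 8 libraries against 213 for Hes7. The library kit keeps the strand, and how the authors' mapping used it is not given in the sources used here.

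Hes5, a target of Notch in neural progenitors (chr4:154960923-154962371), gave 1 to 7 counts per library, and Hes2 (chr4:152158867-152162469) gave 0 to 5. Their highest levels were 0.0670 CPM for Hes5, in the Dll1+ library of GFP mouse 2, and 0.0899 CPM for Hes2, in the Dll1+ library of mCh mouse 2. Most values of this pair of genes lay at or under 3 counts, so neither gene was tested and no difference was detectable at this depth. These floors cover counting error alone.

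HeyL is a Hey family repressor best known from smooth muscle and pericytes, and its gene lies at chr4:123233556-123249875. In the GFP mice it was low in every library, at 1.53 and 1.70 CPM in Dll1- and 1.32 and 1.03 CPM in Dll1+ cells. In the mCh mice it was at 22.6 and 33.3 CPM in Dll1- and at 6.16 and 5.93 CPM in Dll1+ cells. Dll1+ libraries lay below their pairs in every mouse, the sorts did not overlap within a reporter, and all 4 mCh libraries lay above all 4 GFP libraries. The log2 differences within mice were -0.21 and -0.70 in the GFP mice and -1.87 and -2.48 in the mCh mice.

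In the mCh mice Heyl was 4.53-fold lower in Dll1+ than in Dll1- cells (log2 difference -2.18 ± 0.20 SE, adjusted p = 0.00708). There 3 of the 7 tested members passed the threshold, Hes1 and Hey1 higher and Heyl lower, against 11.8% of all genes, 5.51% higher and 6.25% lower. In the GFP mice the log2 difference of Heyl was -0.48 ± 0.26 SE (adjusted p = 0.299), and over the 4 mice it was -1.48 ± 0.41 SE (adjusted p = 0.0753). Without the mouse as a block the value over the 4 mice passed (-1.34, adjusted p = 0.0104), as it did with DESeq2 (-1.38, adjusted p = 0.0035), and with the mCh libraries fitted alone the value in the mCh mice did not (-2.20, adjusted p = 0.0591), a fit in which no gene of the table passed. The difference between the 2 reporters in the Dll1+ effect, 1.70 ± 0.32 SE on the log2 scale, did not pass over all genes with edgeR (adjusted p = 0.123) and passed with DESeq2 (adjusted p = 0.00601). Of the 7 members, 0 passed this test with edgeR. Of all genes, 0.071% passed it with edgeR, 0.0655% with a larger and 0.00546% with a smaller value in the GFP mice. The edgeR unadjusted p was under 0.05 for 2 members (Heyl and Hey1) and for 2420 of all 18322 tested genes. With DESeq2 1 member passed, and more of all genes passed than with edgeR. Without mCh mouse 1 the Heyl difference was 2.05 (adjusted p = 0.032).

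**Figure D3:**
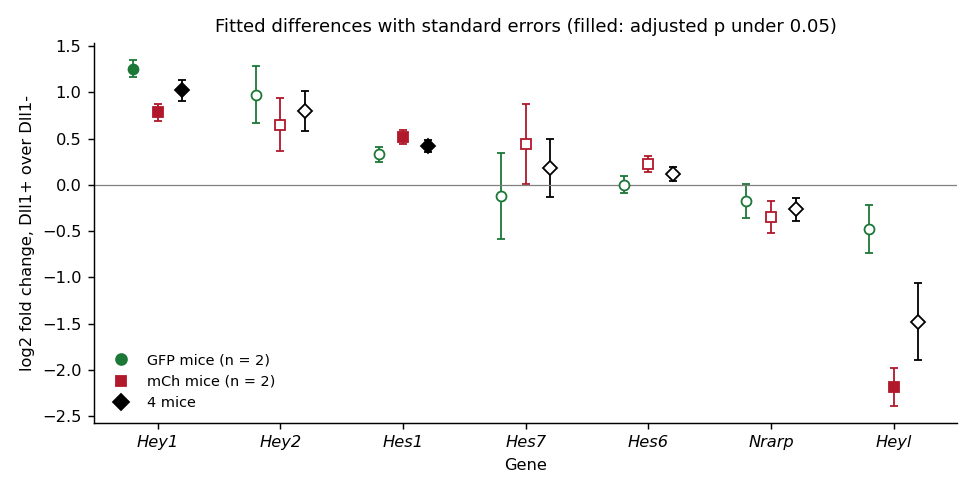
Fitted log2 difference of Dll1+ over Dll1- cells with its standard error for the 7 tested genes, in the GFP mice (green circles, 2 mice), in the mCh mice (red squares, 2 mice) and over 4 mice (black diamonds), with filled symbols for an adjusted p under 0.05. Hey1 and Hes1 lie above 0 in all 3 fits, and Heyl lies at -0.48 in GFP and -2.18 in mCh mice.

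Between the reporters, Heyl and Nrarp were the 2 of 7 tested members that passed the threshold, in Dll1- and again in Dll1+ cells, each time higher in the mCh mice. The comparisons contrast different libraries of the same mice. Both came from 1 fit over all 8 libraries without a mouse term, so they share the estimate of spread. Of all genes, 36.6% passed in Dll1- cells (18.7% higher and 17.9% lower in the mCh mice) and 30.6% in Dll1+ cells (15.2% higher and 15.4% lower), so a call by itself says little here. Heyl was 17.3-fold higher in mCh than in GFP Dll1- cells (log2 difference 4.11 ± 0.26 SE, adjusted p = 9.3e-04) and 5.17-fold higher in Dll1+ cells (2.37 ± 0.25 SE, adjusted p = 0.00332). Nrarp was 2.40-fold higher in Dll1- cells (1.26 ± 0.26 SE, adjusted p = 0.0102) and 2.13-fold higher in Dll1+ cells (1.09 ± 0.25 SE, adjusted p = 0.0209). With either GFP mouse left out no member passed in either sort, and adjusted p for Heyl reached at most 0.0714 in Dll1- and 0.138 in Dll1+ cells.

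Nrarp, which dampens Notch signaling (chr2:25180758-25183339), was at 3.58 and 3.25 CPM in Dll1- and 3.31 and 2.77 CPM in Dll1+ cells of the GFP mice. The mCh mice had 7.01 and 9.44 CPM in Dll1- and 5.49 and 7.42 CPM in Dll1+ cells. All mCh libraries lay above all GFP libraries, while the sorts overlapped within each reporter. Between Dll1+ and Dll1- cells the log2 fold change was -0.27 ± 0.12 SE over the 4 mice (adjusted p = 0.197), with -0.11, -0.23, -0.35 and -0.34 in the single mice. An antisense gene over Nrarp, Gm38287, held 4 counts in all against 2353 for Nrarp.

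The other members did not pass between the reporters. Hes1 was lower in mCh than in GFP Dll1- cells without overlap (log2 difference -0.44 ± 0.15 SE, adjusted p = 0.0604) and overlapped in Dll1+ cells (-0.26 ± 0.15 SE, adjusted p = 0.231). Hey1 overlapped in Dll1- cells (-0.23 ± 0.34 SE, adjusted p = 0.636), and lay lower in mCh than in GFP Dll1+ cells without overlap (-0.74 ± 0.34 SE, adjusted p = 0.143). For Hes6, Hes7 and Hey2 the adjusted p ranged from 0.148 to 0.964. Single mice decided some of these: without mCh mouse 1, Hey1 was lower in mCh Dll1- (log2 value -0.79, adjusted p = 0.00373) and Dll1+ cells (-1.18, adjusted p = 0.00205), and without mCh mouse 2 it was lower in Dll1+ cells (-0.42, adjusted p = 0.0306), where Hes6 then also passed. With DESeq2 Hes1 passed in Dll1- cells (-0.43, adjusted p = 0.0475).

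Markers of other cell types moved with Heyl and, less steeply, with Nrarp. The pericyte and smooth muscle list, from Higd1b (mean 1.51 CPM) to Notch3 (134 CPM), holds a Notch receptor that was high in every library, at 102 to 163 CPM, and its sum was therefore also taken without Notch3, a choice made after seeing the data. The 7 other markers summed to 28.4 to 36.6 CPM in the 4 GFP libraries, to 496 and 657 CPM in the mCh Dll1- libraries and to 91.8 CPM in each mCh Dll1+ library. With Notch3 the sums were 157 to 199 CPM in the GFP libraries, 624 and 795 CPM in the mCh Dll1- libraries and 202 and 194 CPM in the mCh Dll1+ libraries, the last close to the 199 and 193 CPM of the GFP Dll1+ libraries. In the mCh mice 7 of the 8 pericyte markers were lower in Dll1+ cells, against 6.25% of all genes. The list median log2 difference there was -2.39 against 0.02 over all genes, and in the GFP mice the list median was 0.04. Between the reporters 7 of the 8 were higher in mCh Dll1- cells (median 4.08) and 5 of the 8 in mCh Dll1+ cells (median 1.73), with Notch3 lower there. All 8 endothelial, 6 fibroblast and 6 tested immune markers were also higher in mCh than in GFP Dll1- cells. In Dll1+ cells 2 of the 8 endothelial, 4 of the 6 fibroblast and 4 of the 6 tested immune markers were higher. Of all genes, 18.7% were higher in mCh Dll1- and 15.2% in mCh Dll1+ cells.

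Over the 8 libraries the log2 CPM of Heyl correlated with the log2 sum of the 7 pericyte markers with a Pearson r of 0.98, and with the sums of fibroblast (r = 0.98), immune (r = 0.98) and endothelial markers (r = 0.96). For Nrarp the same values were 0.90, 0.93, 0.94 and 0.90. With the whole pericyte list, Notch3 included, r was 0.88 for Heyl and 0.74 for Nrarp. For Hes1 they were -0.77, -0.75, -0.71 and -0.71, and for Hey1 -0.57, -0.66, -0.55 and -0.64. The 8 points share mice, reporters and sorts, and the mCh Dll1- libraries set most of the range, so these values describe the libraries and carry no test. In bulk libraries fewer cells of a type and less RNA per cell cannot be told apart, and the part of these markers in the Heyl and Nrarp results was not tested.

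**Figure D4:**
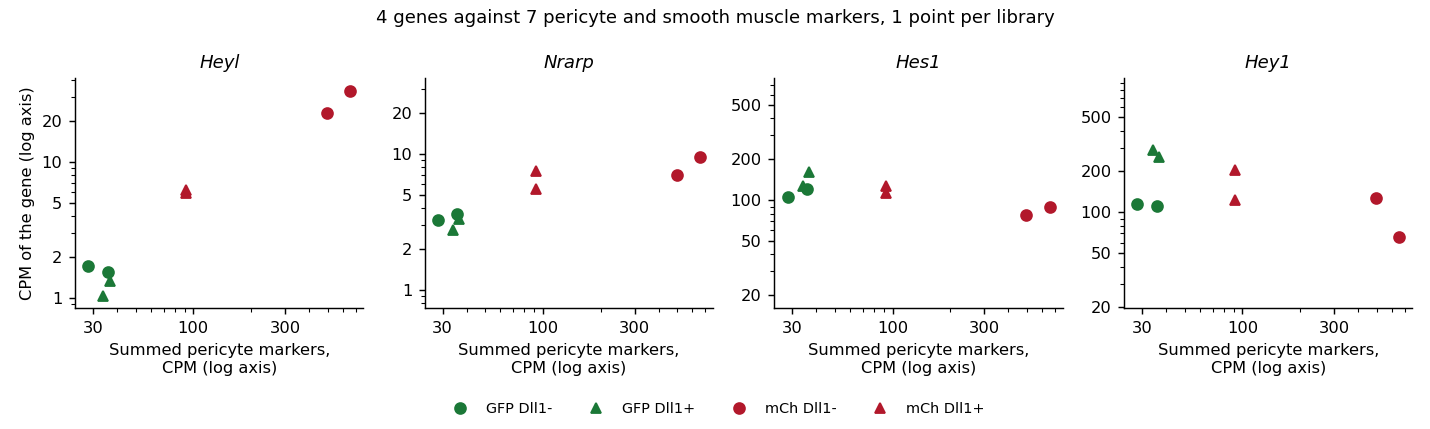
CPM of Heyl, Nrarp, Hes1 and Hey1 against the summed CPM of 7 pericyte and smooth muscle markers, both on log axes, with 1 point per library, circles for Dll1- and triangles for Dll1+, green for GFP and red for mCh. Heyl climbs from 1.03 to 33.3 CPM along the marker sum and Nrarp from 2.77 to 9.44 CPM, whereas Hes1 and Hey1 do not climb with it.

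The genes most like each member over the 8 libraries were taken from 13261 other tested genes that averaged 1 CPM or more, by Pearson r of log2 CPM. With so many genes and 8 libraries, high values arise readily, and they are given as a description. For Heyl the closest was Cspg4 (r = 0.99), which encodes the pericyte proteoglycan NG2 and was at 1.66 ± 0.30 and 1.35 ± 0.51 CPM in GFP Dll1- and Dll1+ cells and at 28.0 ± 7.16 and 6.69 ± 0.55 CPM in mCh Dll1- and Dll1+ cells (mean ± SD, n = 2 each). Heyl was at 1.62 ± 0.12, 1.18 ± 0.21, 28.0 ± 7.52 and 6.05 ± 0.16 CPM in the same groups. Mtfr1l (r = 0.99) and Arhgdib (r = 0.99) followed. For Nrarp they were Dzip1l, Rac1 and Mt2, each at r = 0.99. For Hes1 they were Unc5cl (r = 0.98), Itprid1 (r = 0.97) and Cx3cl1 (r = 0.97), a chemokine, which was at 177 and 169 CPM in Dll1- and at 235 and 197 CPM in Dll1+ cells of the GFP mice. For Hey1 they were Ifi44, an interferon-induced gene (r = 0.98), Hap1 (r = 0.98) and Car12, a carbonic anhydrase (r = 0.98). For Hes6 they were Cdh3 (r = 0.97), which encodes P-cadherin, Gpc2 (r = 0.96) and Adgrb1 (r = 0.96). The low genes Hey2 and Hes7 had weaker partners, Rnf139 (r = 0.93), Mgat2 (r = 0.92) and Cfl2 (r = 0.91) for Hey2, and Bbox1 (r = 0.86) and 9930012K11Rik (r = 0.85) for Hes7.

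Among the genes around the family in the pathway, few passed over the 4 mice, in which 14% of all genes passed. Of the 4 tested Notch ligands, Dll1, on which the cells were sorted, was the 1 that passed. Of the 4 receptors 0 passed with edgeR, 1 had an unadjusted p under 0.05 and 1 passed with DESeq2. Of the 9 genes of the Rbpj activator complex, Maml2, a coactivator, was 1.30-fold higher in Dll1+ cells (adjusted p = 0.0272). Of the 13 corepressors of Rbpj and Hes proteins 0 passed with edgeR, 5 had an unadjusted p under 0.05 and 3 passed with DESeq2. Of all 18322 tested genes, 5936 had an unadjusted p under 0.05 with edgeR over the 4 mice. DESeq2 also called more of all genes than edgeR did.

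Bhlhe41, a relative of the Hes genes with basic helix-loop-helix and Orange domains, was 2.04-fold higher in Dll1+ cells over the 4 mice (log2 difference 1.03 ± 0.10 SE, adjusted p = 0.00645), and it was the 1 of 2 tested genes of this kind that passed, out of 4 listed. It rose in both reporters, by 0.87 ± 0.12 SE in the GFP mice (adjusted p = 0.0101) and by 1.19 ± 0.12 SE in the mCh mice (adjusted p = 0.00769) on the log2 scale. Its levels were 108 and 117 CPM in Dll1- and 215 and 195 CPM in Dll1+ cells of the GFP mice, and 40.7 and 146 CPM against 105 and 294 CPM in the mCh mice. Among the 7 partners and Id inhibitors of helix-loop-helix proteins, Id3 was 1.67-fold lower in Dll1+ cells (adjusted p = 0.0383), with log2 differences of -0.36, -0.91, -0.44 and -1.20 in the 4 mice. Id3 was also 5.91-fold higher in mCh than in GFP Dll1- cells (adjusted p = 0.00259), as Heyl and Nrarp were.

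Of 6 listed genes known to be repressed by Hes proteins, 2 had enough counts to be tested, Cdkn1b and Cdkn1c. Neither passed over the 4 mice with edgeR (1 had an unadjusted p under 0.05, and 1 passed with DESeq2). The edgeR unadjusted p was under 0.05 for 5936 of all 18322 tested genes, and DESeq2 called more of all genes than edgeR. Cdkn1b, an inhibitor of the cell cycle, had a log2 difference of 0.30 ± 0.080 SE over the 4 mice (adjusted p = 0.0613), and in the mCh mice it was 1.37-fold higher in Dll1+ cells without overlap (adjusted p = 0.0172). Of 10 tested genes among other Notch targets, Sox9, a progenitor transcription factor, was 1.46-fold higher in Dll1+ cells (adjusted p = 0.015), and Efnb2, an ephrin ligand, was 1.69-fold higher (adjusted p = 0.0226). Both lay higher in the Dll1+ library of each mouse, as Hes1 and Hey1 did, and their log2 differences ran from 0.39 to 0.73 for Sox9 and from 0.32 to 1.07 for Efnb2.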

How the data were processed

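RNA of 8 libraries from 4 mice was analysed, with groups, reporters and mouse pairs taken from the library labels. Transcripts of GENCODE M20 (GRCm38.p6 in the submitters' processing notes) were quantified by the authors in Salmon and brought to gene level in tximport. What they deposited are estimated counts, as whole numbers without normalization. Of 53697 genes, 53668 matched a symbol in GENCODE M21 (GRCm38), which also gave exon lengths and coordinates. Salmon shares reads among similar transcripts, so counts of low members with related copies are estimates.

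Tests on the counts ran in edgeR 4.0.16 under R 4.3.3 (TMM, filterByExpr on Dll1+ and Dll1- libraries, robust quasi-likelihood F test, Benjamini-Hochberg adjustment over 18322 genes). Over the 4 mice the model held Dll1 status and the mouse, after the study's own 2-factor model, another fit held the mouse and a Dll1+ effect per reporter, and the last held the 4 group means. A prior count of 2 went into log2 CPM. The pairs come from the same animal, and the deviations of the paired libraries from their group means correlated at -0.05 in the GFP and 0.55 in the mCh mice. The libraries of a group differed beyond sampling noise. P-values of the Dll1+ tests measure the spread of the differences within mice, with 2 mice per reporter. Those between the reporters measure the spread of libraries within the 4 groups. That fit had no mouse term, so it treated the 2 libraries of a mouse as independent.

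The members, the gene lists and the rule for named genes were chosen with earlier results of these data known. Named were the members, Dll1, up to 4 genes past the threshold over 4 mice in each pathway list, the highest and lowest gene of each marker list, and the 3 genes most correlated with each member. Some genes that these rules name are not reported here. Cspg4, Cdkn1b, Cdkn1c and Lgals7 were further described after their values were seen. The scripts were tested on simulated counts. Alternatives were RLE size factors, DESeq2 1.42.0, other filters on low counts, no mouse block, mouse as a random effect in limma 3.58.1 voom, single reporters or sorts fitted alone, and each mouse left out.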

Additional observations from a re-analysis of the deposited data

How the results depend on the processing

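Main counts of members past the threshold were 2 over 4 mice, 1 in the GFP mice, 3 in the mCh mice, 0 for the difference between the reporters, and 2 in each comparison of mCh with GFP cells. Over the 4 mice, DESeq2 gave 4 members and the fit with no replicate block gave 1 (Heyl), and leaving out each mouse gave 0 to 2. In the GFP mice the count was 2, with Hes1 added, under RLE size factors, DESeq2, no filter, at least 10 counts in every library and a filter on the 4 groups, it was 0 with no replicate block, and it ran from 0 to 1 with a mouse left out. In the mCh mice it was 1 with no replicate block, 0 with that reporter alone, and 2 to 3 with a mouse left out. For the difference, DESeq2 gave 1, no filter gave 2, and a mouse left out gave 0 to 1. With a mouse left out, mCh against GFP gave 0 to 3 in Dll1- and 0 to 4 in Dll1+ cells, and mouse as a random effect (replicate block) kept 2 in each. Where a reporter was left with 1 mouse, that mouse was assumed to vary like the others. The cause of these changes was not tested, except that fits of 1 reporter or with a mouse left out hold fewer samples.

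All genes past the threshold numbered 2568 over 4 mice (4362 with DESeq2, 1207 with no replicate block, 405 to 2401 with a mouse left out), 1673 in the GFP mice (3001 with no filter, 274 with no block, 2 to 2355), 2154 in the mCh mice (3637, 212, 905 to 1315, and 0 with the reporter alone) and 13 for the difference (1143 with no filter, 540 with DESeq2, 44 and 45 with the other filters, 0 with no block, 0 to 717). Between the reporters, leaving out a mouse gave 0 to 7828 genes in Dll1- and 0 to 6897 in Dll1+ cells.

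Among log2 fold changes of members and Dll1 under alternatives, 451 kept direction and call, 25 gained and 26 lost the call, and 10 changed sign, each with a mouse left out and none of them past the threshold with all 4 mice. Leave-one-out values ran from -0.0737 to 0.386 for Hes7 over 4 mice, -0.530 to 0.267 in the GFP and -0.0111 to 0.982 in the mCh mice, from -0.0444 to 0.0539 for Hes6 in the GFP mice, and, between the reporters, from -0.0426 to 0.334 for Hes6, -0.0187 to 1.07 for Hey2 and -0.795 to 0.216 for Hey1 in Dll1- cells and from -0.255 to 0.706 for Hes7 and -0.582 to 1.02 for Hey2 in Dll1+ cells. Depth limits Hes2, Hes5 and Hes7 most.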
